A study of Mus musculus with 6 samples.

Results

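The genes of the LIF and STAT3 pathway described here are *Lif*, *Lifr*, *Il6st*, *Ptpn11*, *Stat3*, *Socs3*, *Socs2*, *Pim1*, *Pim3* and *Gbx2*. They are a list of named genes, found by identifier, and hold 10 of the 37620 genes in the table. All 10 were in the table and all 10 passed the filter on low counts, so none is missing from what follows. PolyA RNA was measured by RNA-seq in E14 mouse embryonic stem cells (ESCs) of strain 129/Ola, in 3 libraries of wild-type cells and 3 of *Ube2d3*-S138A cells. S138A names a serine of the ubiquitin-conjugating enzyme UBE2D3 that CRISPR/Cas9 editing of both alleles replaced with alanine, and the study's functional work on ESCs used 1 mutant clone. The labels name no other edit and no treatment in either genotype. Cells grew in 15% fetal bovine serum, and the study's general ESC medium also holds LIF, with cells kept on gelatin and no feeder layer named. The comparison asks how the RNA of these genes differs between the genotypes.

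LIF is a cytokine of the interleukin-6 family that keeps mouse ESCs in self-renewal. It binds the receptor chain LIFR, which pairs with the shared chain gp130, the product of *Il6st*, and JAK kinases bound to both chains then phosphorylate the transcription factor STAT3. STAT3 enters the nucleus and raises a set of genes that includes its own inhibitor *Socs3*, the PIM kinase genes and *Gbx2*, while the phosphatase SHP2, encoded by *Ptpn11*, links the same receptor to the MAPK branch. The RNA of these genes does not measure phosphorylated STAT3.

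The libraries held 33227593 to 37169770 counts, and 16023 genes passed the filter of edgeR. Levels are given in CPM, the gene's counts relative to the library's total after TMM scaling. Along the first principal component, with 60.1% of the variance, wild-type 3 lay with S138A C, away from the rest, and the second, with 26%, split the genotypes. Replicates differed from each other by 2.65 to 58.1 times the sampling noise, with the closest pairs being wild-type 1 with 2 and S138A A with B. Nothing in the labels says that cultures were separate, and p-values then measure only the spread between these libraries, which may be technical. The letters A, B and C stand for the S138A columns, whose names end in 1, 2 and 3 but do not match the replicate numbers of the labels by name. The 7 ESC markers summed to 6320 to 7080 CPM in wild-type and 6420 to 7030 CPM in S138A libraries and were each at 5 CPM or more. Fibroblast and feeder markers summed to 42.7 to 71.9 CPM in wild-type and 78.7 to 115 CPM in S138A libraries, while the 6 primitive endoderm markers stayed at 13.2 CPM or less in sum. The 5 primitive streak markers summed to at most 14.3 CPM and the 5 trophoblast markers to 206 to 240 CPM in wild-type and 191 to 353 CPM in S138A libraries. *Krt18* made up most of the trophoblast sum, at 228, 222 and 195 CPM in wild-type and 309, 325 and 174 CPM in S138A libraries. *Krt7* was at 19.5 CPM or less, and *Hand1*, *Cdx2* and *Elf5* were at 6.39 CPM or less. *Ube2d3*, which carries the edit, stood at 473, 459 and 304 CPM in the wild-type libraries and 491, 429 and 265 CPM in the S138A libraries, and counts per gene do not read the edit itself.

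None of the 10 genes differed between the genotypes in edgeR's quasi-likelihood test at an adjusted p under 0.05, where 0% of all 16023 genes were called. At an unadjusted p under 0.05 the test held 1 of the 10, *Il6st*, and 2270 of all genes tested (14.2%), and limma-voom also called 0 genes. DESeq2 called 0 of the 10, against 2.84% of genes called higher and 2.55% called lower in S138A cells. With a replicate block, which compares A with wild-type 1, B with 2 and C with 3, edgeR called 2 of the 10 higher, *Pim1* and *Pim3*, against 10.7% of all genes, and 0 lower, against 9.13%. Without wild-type 3 and S138A C, in a fit of 2 libraries against 2, *Lif*, *Socs3*, *Pim1* and *Pim3* were called higher (15.3% of all genes were) and *Il6st* and *Socs2* lower (14.3% of all genes were). The 2 libraries left out had been set apart by their own counts. The pairs kept differed by only 2.65 and 3.81 times the sampling noise. Adjusted p-values of this fit, here and below, therefore measure the spread within those pairs only. The median log2 fold change of the 10 genes was 0.05, beside 0.02 over all genes tested.

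**Figure D1:**
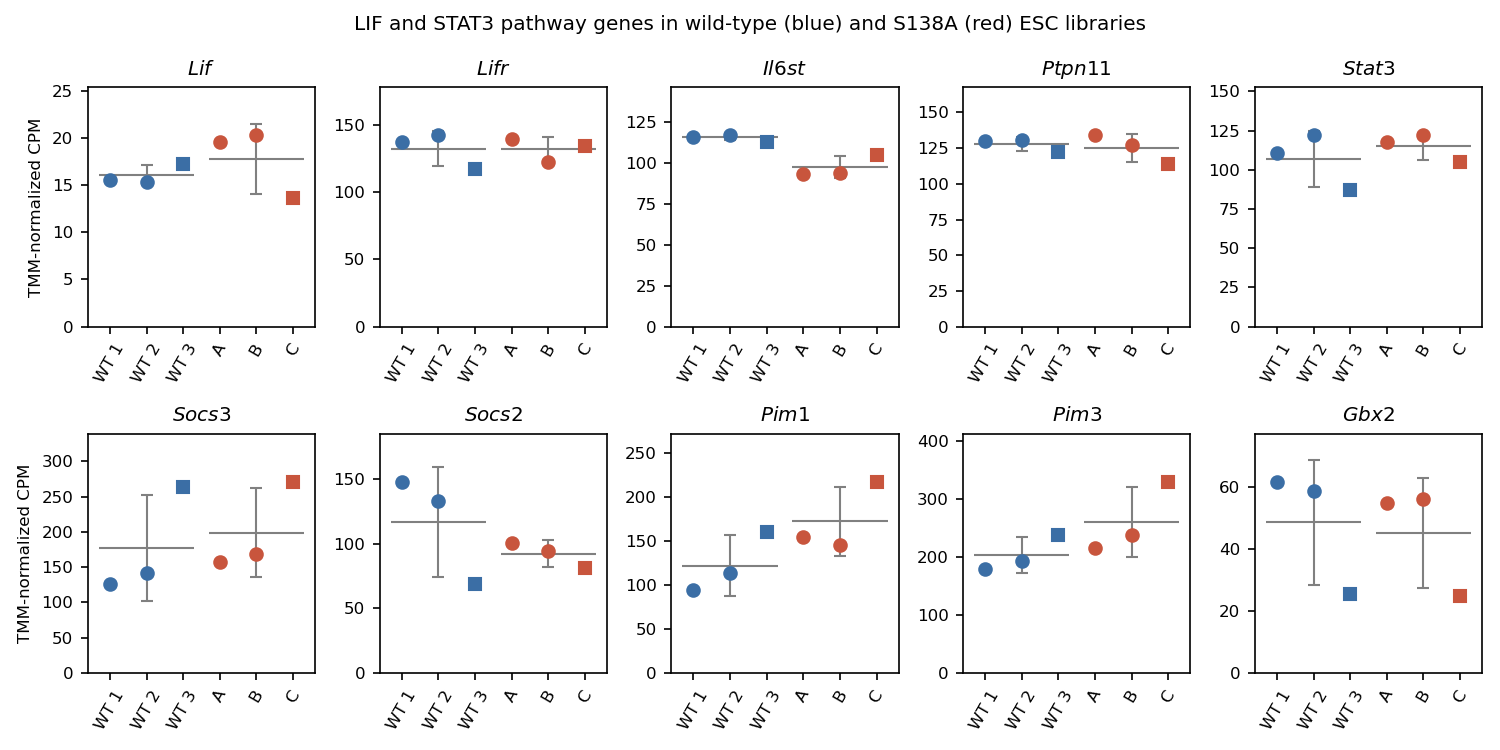
Each panel plots the level of a gene in TMM-scaled CPM (vertical axis from 0) in the 3 wild-type libraries (blue) and the 3 S138A libraries (red), with squares for wild-type 3 and S138A C, lines at the genotype means and bars of 1 SD. Only in the *Il6st* panel do the genotypes not overlap. Both squares lie above all circles in the *Socs3*, *Pim1* and *Pim3* panels, and below all circles in the *Stat3*, *Socs2*, *Gbx2* and *Ptpn11* panels.

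The ligand gene was low, *Lifr* moved little, and *Il6st* was lower in S138A libraries without being called by edgeR over all 6 libraries. *Lif*, the cytokine itself, was read by 485 to 747 counts per library and stood at 15.6, 15.3 and 17.3 CPM in wild-type and 19.6, 20.3 and 13.6 CPM in S138A libraries. S138A A and B were the highest of the 6 libraries and S138A C the lowest, so the genotypes overlapped. The means were 16.1 ± 1.07 CPM (SD, n = 3) and 17.8 ± 3.7 CPM (SD, n = 3), a log2 fold change of 0.15 ± 0.18 (SE) with a 95% interval from -0.28 to 0.58 (edgeR adjusted p = 0.754). The log2 fold change was 0.07 without S138A A (adjusted p = 0.918), 0.04 without S138A B (adjusted p = 0.957) and 0.31 without S138A C (adjusted p = 0.249). The fit of 2 libraries against 2 gave 0.37 (adjusted p = 0.0123).

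*Lifr*, the LIF-binding receptor chain, was at 137, 142 and 117 CPM in wild-type and at 139, 122 and 134 CPM in S138A libraries. The genotypes overlapped fully and had means of 132 ± 13.1 and 132 ± 8.45 CPM (SD, n = 3 each). Its log2 fold change was 0.00 ± 0.11 (SE), with a 95% interval from -0.26 to 0.26 (edgeR adjusted p = 0.998). The fit of 2 libraries against 2 gave -0.10 (adjusted p = 0.332).

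*Il6st*, the gp130 chain through which LIFR and the other receptors of the family signal, had the smallest p of the 10 in edgeR over all 6 libraries. It stood at 116, 117 and 113 CPM in the wild-type libraries and at 93.1, 94.0 and 105 CPM in the S138A libraries. All 3 S138A libraries were below all 3 wild-type libraries, an order that 10.9% of all genes tested showed, and 0 of the 10 genes showed the opposite order, against 11.3% of all genes. The means were 116 ± 2.15 and 97.4 ± 6.68 CPM (SD, n = 3 each), 0.843-fold in S138A cells. The log2 fold change was -0.25 ± 0.09 (SE), with a 95% interval from -0.46 to -0.03, an unadjusted p of 0.0312 in edgeR and an adjusted p of 0.307. The adjusted p was 0.127 in DESeq2, 0.0536 with the replicate block, and 0.00558 in the fit of 2 libraries against 2, where the log2 fold change was -0.32. The summed level of fibroblast and feeder markers, higher in all S138A libraries as given above, moved with the genotype as well, and its part in this difference was not tested. *Krt7*, *Cdx2* and *Pax6* of other marker lists also moved with the genotype, and their part was not tested either. The fibroblast and feeder list did not move as a whole. Its sum was carried by *Col1a1*, with means of 25.9 ± 8.86 and 60.6 ± 19.8 CPM (SD, n = 3 each), and *Thy1*, with 11.1 ± 0.173 and 22.6 ± 5.33 CPM, and *Col3a1* was higher at a low level, while *Col1a2* had 10.9 ± 4.67 and 9.08 ± 2.8 CPM. *Pdgfrb* was highest in wild-type 3 and S138A C, at 8 and 11 CPM, and *Lum* and *Dcn*, which mark fibroblasts, were at 0.158 CPM or less in every library and at 0 in some. In bulk RNA, fewer cells of a type and less RNA per cell cannot be told apart.

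*Ptpn11*, the gene of the phosphatase SHP2, was at 130, 131 and 122 CPM in wild-type and 134, 127 and 114 CPM in S138A libraries. The lowest library of each genotype was the one that stood apart, and the genotypes overlapped. The log2 fold change was -0.03 ± 0.10 (SE), with a 95% interval from -0.26 to 0.20 (edgeR adjusted p = 0.921).

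*Stat3*, the transcription factor at the centre of the pathway, was at 111, 122 and 87.1 CPM in wild-type and 118, 122 and 105 CPM in S138A libraries. Wild-type 3 was the lowest of all and S138A C the next, and the other 4 libraries lay within 111 to 122 CPM. The means were 107 ± 17.9 and 115 ± 8.73 CPM (SD, n = 3 each), with a log2 fold change of 0.11 ± 0.14 (SE), a 95% interval from -0.23 to 0.45 and an edgeR adjusted p of 0.771. *Stat3* shares 72 exonic bases with *Stat5a* on the opposite strand. The strand setting of the counting is not stated. *Stat5a* held no more than 299 counts in any library, which does not show how many *Stat3* reads the overlap affects.

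*Socs3*, whose protein binds gp130 and blocks the JAK kinases, was at 126, 142 and 263 CPM in wild-type and 157, 169 and 271 CPM in S138A libraries. Wild-type 3 and S138A C were far above the other 4 libraries, and within those 4 both S138A libraries were above both wild-type libraries. The means were 177 ± 74.9 and 199 ± 62.8 CPM (SD, n = 3 each), and the log2 fold change was 0.17 ± 0.33 (SE), with a 95% interval from -0.61 to 0.95 (edgeR adjusted p = 0.854). Without wild-type 3 and S138A C the log2 fold change was 0.28 (adjusted p = 0.0239), with the replicate block it was 0.20 (adjusted p = 0.0969), and without S138A C alone it turned to -0.12 (adjusted p = 0.865).

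*Socs2*, a SOCS gene best known as an inhibitor of growth hormone signalling, ran the other way, at 148, 133 and 68.7 CPM in wild-type and 101, 94.8 and 81.2 CPM in S138A libraries. Wild-type 3 was the lowest library and wild-type 1 and 2 the highest, so the wild-type libraries spanned the S138A ones. The log2 fold change was -0.34 ± 0.27 (SE), with a 95% interval from -0.99 to 0.31 (edgeR adjusted p = 0.625). In the fit of 2 libraries against 2 it was -0.53 (adjusted p = 0.00245), whereas S138A C was higher than wild-type 3 by a log2 ratio of 0.24.

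The PIM kinase genes, survival kinases and reported STAT3 targets, had the largest positive log2 fold changes of the 10. *Pim1* was at 94.0, 113 and 160 CPM in wild-type and 154, 145 and 217 CPM in S138A libraries. The genotypes overlapped only because wild-type 3 lay above S138A A and B. The means were 122 ± 34.2 and 172 ± 39.3 CPM (SD, n = 3 each), 1.41-fold higher in S138A cells, and the log2 fold change was 0.49 ± 0.24 (SE), with a 95% interval from -0.07 to 1.06 (edgeR adjusted p = 0.409). With the replicate block *Pim1* rose by 0.50 ± 0.08 (SE) on the log2 scale (adjusted p = 0.0121), from log2 ratios of 0.72, 0.36 and 0.44 in the 3 pairs. Pairing A with wild-type 2 and B with wild-type 1 gave an adjusted p of 0.00727. This crossed pairing kept C with wild-type 3 and swapped only libraries close to each other, so it gives no separate support. The fit of 2 libraries against 2 gave 0.53 (adjusted p = 0.00516). DESeq2 without a block gave an adjusted p of 0.34.

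*Pim3* was at 179, 193 and 239 CPM in wild-type and 215, 238 and 330 CPM in S138A libraries. S138A C was the highest, wild-type 1 and 2 the lowest, and wild-type 3 lay beside S138A B. The means were 204 ± 31.4 and 261 ± 60.8 CPM (SD, n = 3 each), 1.28-fold higher in S138A cells, with a log2 fold change of 0.36 ± 0.19 (SE), a 95% interval from -0.09 to 0.81 and an edgeR adjusted p of 0.454. With the replicate block *Pim3* rose by 0.34 ± 0.07 (SE) on the log2 scale (adjusted p = 0.0182), from log2 ratios of 0.26, 0.30 and 0.46. The crossed pairing gave an adjusted p of 0.0237, the fit of 2 against 2 gave 0.28 (adjusted p = 0.0204), and DESeq2 gave an adjusted p of 0.439. Both PIM genes were thus called only in the fits that pair the libraries or leave out wild-type 3 and S138A C. Of the fibroblast and feeder markers, *Col1a1*, *Thy1* and *Col3a1* were also higher in S138A libraries, as given for *Il6st*. *Col1a2* and *Pdgfrb* overlapped between the genotypes, and *Lum* and *Dcn* were near 0. *Krt7* and *Cdx2* of the trophoblast markers were higher too. The part of these markers in the PIM gene differences was not tested.

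*Gbx2*, a homeobox gene reported as a STAT3 target that supports self-renewal, split by library and not by genotype. It was at 61.8, 58.8 and 25.6 CPM in wild-type and 54.8, 56.3 and 24.9 CPM in S138A libraries. Wild-type 3 and S138A C were the lowest by far, and the log2 fold change was -0.10 ± 0.41 (SE), with a 95% interval from -1.09 to 0.88 (edgeR adjusted p = 0.939). With the replicate block it was -0.09 (adjusted p = 0.391). The gene shares 946 exonic bases with *D130058E05Rik* on the opposite strand, which held 102 to 234 counts per library. *Pim1* shares 488 exonic bases with *Gm26885* on the opposite strand, which had no row in the table.

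**Figure D2:**
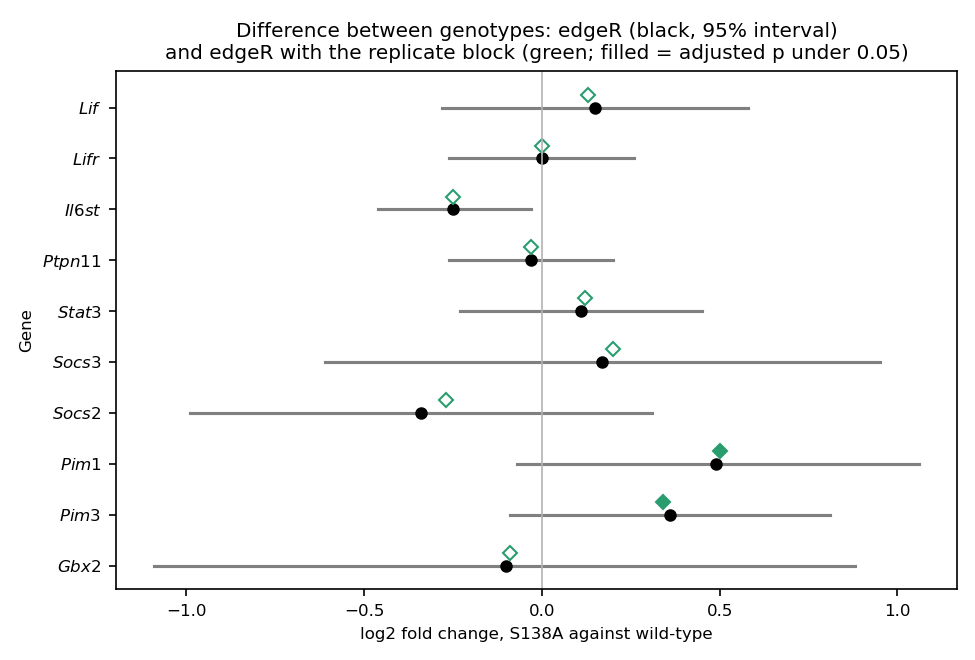
The plot gives the log2 fold change of each gene, S138A against wild-type, from edgeR without a block (black points with 95% intervals) and with the replicate block (green diamonds, filled where the adjusted p was under 0.05). The interval of *Il6st* alone lies to one side of 0, and only the diamonds of *Pim1* and *Pim3* are filled.

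The difference between wild-type 3 or S138A C and the other libraries of the same genotype was larger for several of these genes than the difference between genotypes. *Socs3* was 1.96-fold higher in wild-type 3 than in the mean of wild-type 1 and 2, and 1.66-fold higher in S138A C than in the mean of A and B. The same ratios were 1.55 and 1.45 for *Pim1* and 1.29 and 1.46 for *Pim3*. *Gbx2* went down, with ratios of 0.425 and 0.449, and *Stat3* had 0.746 and 0.877. *Socs2* was lower by a ratio of 0.488 in wild-type 3 but only 0.829 in S138A C, and *Lif* parted, with 1.12 and 0.68. In both genotypes the library that stood apart was above the other 4 libraries for 3 of the 10 genes, *Socs3*, *Pim1* and *Pim3*, as it was for 24.6% of all genes tested. It was below them for 4 of the 10, *Stat3*, *Socs2*, *Gbx2* and *Ptpn11*, as it was for 24.4% of all genes. These values are a description without a test, since the 2 libraries were set apart by their own counts. The neural ectoderm markers, of which 3 of 4 are in the table, summed to 57.3 CPM in wild-type 3 and 51.4 CPM in S138A C and reached 124 CPM in wild-type and 120 CPM in S138A libraries, and their part in this pattern was not tested.

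**Figure D3:**
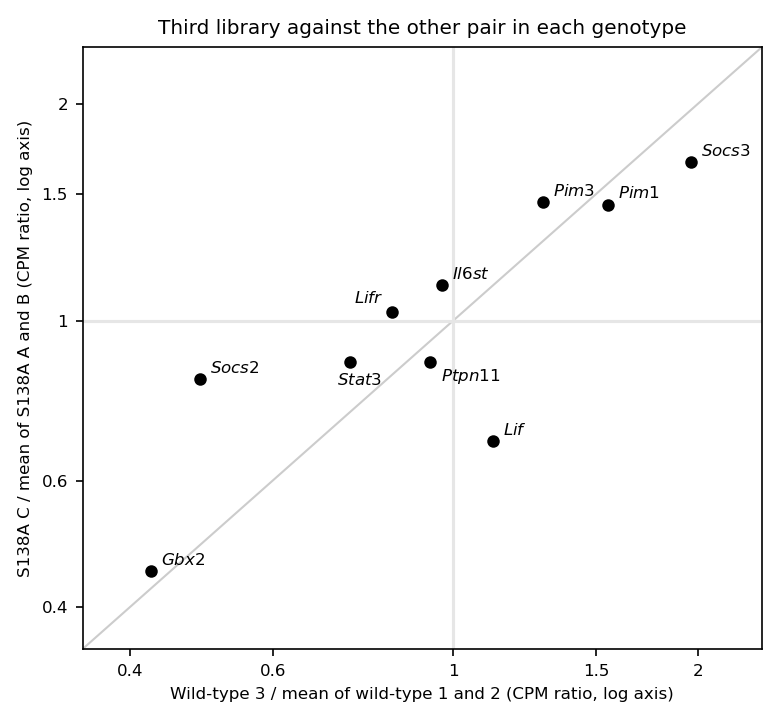
For each gene the horizontal axis gives the ratio of CPM in wild-type 3 to the mean of wild-type 1 and 2, and the vertical axis the ratio of S138A C to the mean of S138A A and B, both on log axes with the diagonal of equal ratios. *Socs3*, *Pim1* and *Pim3* lie at the upper right and *Gbx2* at 0.425 and 0.449 at the lower left, while *Lif* and *Socs2* lie away from the diagonal.

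The promoters of *Socs3*, *Pim1*, *Pim3* and *Gbx2* are shown because STAT3 is known to act at these genes. They did not all move the same way, since *Gbx2* was lower in the libraries that stood apart and *Socs3*, *Pim1* and *Pim3* were higher. Sequences are RefSeq's on GRCm38.p6, from 250 bases before the annotated start to 50 after it, read along the gene's strand, and 9 of the 10 genes matched an entry in the table, *Socs2* being the gene with no entry. Capitals mark the palindromic STAT motif TTCNNNGAA and the GC box GGGCGG on either strand. The windows are chr11:117969317-117969616 on the minus strand for *Socs3*, chr17:29490535-29490834 on the plus strand for *Pim1*, chr15:88861944-88862243 on the plus strand for *Pim3*, and chr1:89931127-89931426 on the minus strand for *Gbx2*.
Socs3: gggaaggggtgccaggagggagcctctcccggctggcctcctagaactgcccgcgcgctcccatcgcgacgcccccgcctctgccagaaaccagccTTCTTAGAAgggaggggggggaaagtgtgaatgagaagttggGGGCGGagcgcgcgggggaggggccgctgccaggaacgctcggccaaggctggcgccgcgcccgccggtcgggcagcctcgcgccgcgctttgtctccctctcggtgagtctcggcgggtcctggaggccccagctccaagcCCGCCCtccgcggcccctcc
Pim1: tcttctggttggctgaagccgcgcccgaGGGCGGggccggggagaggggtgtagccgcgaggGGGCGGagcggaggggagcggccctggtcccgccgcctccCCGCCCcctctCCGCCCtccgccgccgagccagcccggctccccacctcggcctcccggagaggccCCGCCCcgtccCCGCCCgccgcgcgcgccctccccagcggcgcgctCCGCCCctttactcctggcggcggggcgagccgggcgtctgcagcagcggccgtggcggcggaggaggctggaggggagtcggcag
Pim3: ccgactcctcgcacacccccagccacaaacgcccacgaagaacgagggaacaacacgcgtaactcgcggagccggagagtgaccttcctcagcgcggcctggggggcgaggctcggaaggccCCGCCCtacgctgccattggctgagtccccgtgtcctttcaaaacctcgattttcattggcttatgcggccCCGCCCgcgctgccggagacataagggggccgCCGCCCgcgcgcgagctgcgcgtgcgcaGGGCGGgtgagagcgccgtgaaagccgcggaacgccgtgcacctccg
Gbx2: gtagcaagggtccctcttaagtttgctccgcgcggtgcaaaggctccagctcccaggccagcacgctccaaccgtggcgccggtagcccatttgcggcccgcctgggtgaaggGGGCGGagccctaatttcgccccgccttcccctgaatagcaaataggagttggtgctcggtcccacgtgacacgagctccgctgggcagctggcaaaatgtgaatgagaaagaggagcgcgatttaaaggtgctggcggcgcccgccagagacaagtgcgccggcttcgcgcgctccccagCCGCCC

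Of the 9 genes with a promoter entry only *Socs3* held the STAT motif in this window, with 1 match that begins at position -154 from the start, while 8.3% of all 32851 promoters of the table held it. For *Socs3* RefSeq's start lies inside the longer gene span of GENCODE M21, so the window depends on the start taken. The GC box was found in at least 1 promoter entry of 8 of the 9 genes, all but *Lif*, while 35.7% of all single entries held it. The 9 genes had 11 entries, so the 2 figures are not alike, and a second *Lifr* entry held 0 GC boxes. The *Pim1* promoter shown held 7 GC boxes and was 81.3% G and C, and 0.627% of all promoters held as many or more. A second *Pim1* entry, at chr17:29492835-29493134, held 0 GC boxes and was 49% G and C. The *Pim3* promoter held 4 GC boxes at 69% G and C, *Gbx2* held 2 at 64.7% and *Socs3* held 2 at 73.3%, beside a median of 52.7% over all promoters. No promoter of the 9 genes held TATAAA on either strand, which 13.6% of all promoters did. A match is a description of the letters and not a measurement of binding.

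Ratios of counts between genes of the same library do not depend on scaling, and 3 were compared. The ratio of *Lifr* to *Il6st*, the receptor chains of LIF, was 1.18, 1.21 and 1.03 in the wild-type libraries and 1.49, 1.30 and 1.28 in the S138A libraries. Every S138A library was above every wild-type library, with means of 1.14 ± 0.0929 and 1.36 ± 0.116 (SD, n = 3 each) and a log2 difference of 0.25. This largely restates the *Il6st* difference, since the log2 fold change was 0.00 for *Lifr* and -0.25 for *Il6st*. The two-sided exact permutation test gave p = 0.1, the smallest that 3 against 3 allow, and 0.3 after Benjamini-Hochberg adjustment over the 3 ratios. The ratio of *Pim1* to *Pim3* was 0.525, 0.585 and 0.671 in the wild-type libraries and 0.719, 0.608 and 0.659 in the S138A libraries, so it overlapped (exact permutation p = 0.3, adjusted 0.45). The ratio of *Socs3* to *Socs2* was 0.852, 1.06 and 3.83 in the wild-type libraries and 1.56, 1.78 and 3.34 in the S138A libraries, and wild-type 3 and S138A C were the highest (exact permutation p = 0.6, adjusted 0.6).

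Levels of different genes were compared per kilobase of the longest coding transcript. The PIM and SOCS genes were the most abundant, with *Pim3* at 83.9 ± 12.9 CPM per kb in wild-type (SD, n = 3), *Socs3* at 69.4 ± 29.4, *Socs2* at 52.5 ± 19 and *Pim1* at 45.4 ± 12.7 CPM per kb. *Gbx2* followed at 22.8 ± 9.41, *Ptpn11* at 22.8 ± 0.846, *Stat3* at 17.7 ± 2.96, *Lifr* at 13.7 ± 1.36 and *Il6st* at 13.3 ± 0.248 CPM per kb. *Lif* was lowest at 3.99 ± 0.265 CPM per kb in wild-type and 4.43 ± 0.92 in S138A libraries (SD, n = 3 each), which put it at the 41.4 percentile of the 14101 coding genes tested, where *Pim3* was at 95.9. Over all 6 libraries the ranges of neighbours in this order overlapped except between *Pim1* and *Gbx2*, between *Ptpn11* and *Stat3*, and between *Il6st* and *Lif*. With the union of exons as the length, *Socs2* fell from 52.5 to 12.2 CPM per kb and so from the rank of 3 to 6, and its place in the order depends on the transcript taken. *Gbx2* shares 946 of its 2177 exonic bases with a gene on the opposite strand. Its level and place may depend on the strand setting of the counting, which is not stated. Per kilobase the chains of the receptor were near each other, with a *Lifr* to *Il6st* ratio of 1.02 ± 0.0835 in wild-type and 1.22 ± 0.104 in S138A libraries (SD, n = 3 each).

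**Figure D4:**
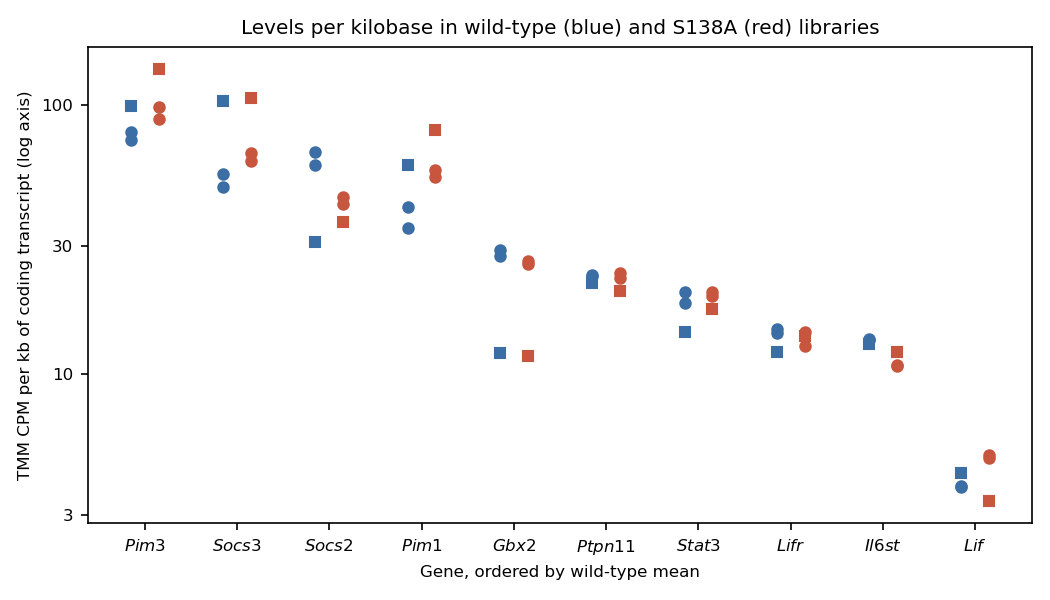
TMM-scaled CPM per kilobase of the longest coding transcript (log axis) are plotted for each library, wild-type in blue and S138A in red, with squares for wild-type 3 and S138A C and genes ordered by their wild-type mean. *Pim3*, *Socs3*, *Socs2* and *Pim1* lie above the receptor genes, and *Lif* lies below all others.

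The rest of the pathway was read from 7 lists of 72 genes, of which 70 were tested. EdgeR called 0 of the 70 and limma-voom called 0. At an unadjusted p under 0.05 edgeR held 12, beside 14.2% of all genes. DESeq2 called 4 higher and 2 lower, beside 2.84% and 2.55% of all genes. With the replicate block edgeR called 13 higher and 3 lower in S138A cells, beside 10.7% and 9.13% of all genes. The crossed pairing called 11 higher and 5 lower, beside 10.9% and 9.44% of all genes. The median log2 fold change over the 70 genes was 0.06. The genes named below are among the 3 of smallest p in each list, and *Jak1*, *Socs7*, *Klf4*, *Klf5*, *Fos*, *Zfp36*, *Sbno2* and *Tfcp2l1* were chosen after their values were seen.

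Of the 4 JAK kinase genes, whose products carry the signal from receptor to STAT3, none was called in these fits, with the median log2 fold change at 0.11 and *Jak1* at 57.2 ± 4.73 CPM in wild-type and 60.5 ± 7.89 CPM in S138A libraries (SD, n = 3 each). Of the 6 other STAT genes none was called either, and their median was -0.07. *Stat5b* was at 9.08, 9.65 and 18.7 CPM in wild-type and 10.7, 11.6 and 23.5 CPM in S138A libraries, with wild-type 3 and S138A C the highest.

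Among ligands of the family 7 of 9 were tested, *Il6* and *Il27* having too few counts, and none was called with the block. *Osm*, the gene of oncostatin M, was at 2.78, 2.69 and 6.87 CPM in wild-type and 2.12, 1.69 and 0.89 CPM in S138A libraries. The genotypes did not overlap, and the log2 fold change was -1.40 ± 0.49 (SE, edgeR adjusted p = 0.29), or -0.53 without wild-type 3 and S138A C. *Ctf1*, the gene of cardiotrophin 1, was at 2.66 ± 0.402 and 1.61 ± 0.373 CPM (SD, n = 3 each; edgeR adjusted p = 0.303, or 0.0689 with the block and 0.0379 with the crossed pairing).

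Of the 5 other receptor chains 2 were called higher with the block and 0 lower, beside 10.7% and 9.13% of all genes. The list's median log2 fold change was 0.87. *Cntfr*, the ciliary neurotrophic factor receptor chain, was at 11.7, 11.7 and 5.61 CPM in wild-type and 20.6, 20.6 and 11.6 CPM in S138A libraries. The log2 ratios in the 3 pairs were 0.82, 0.82 and 1.05, and the log2 fold change was 0.87 ± 0.35 (SE, edgeR adjusted p = 0.333, and 0.00582 with the block). *Il6ra*, the interleukin-6 receptor chain, was at 3.60, 3.42 and 2.07 CPM in wild-type and 8.58, 6.14 and 2.24 CPM in S138A libraries, so S138A C lay within the wild-type range. Its adjusted p was 0.462 in edgeR, 0.049 with the block and 0.051 with the crossed pairing.

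Of the 14 other negative regulators 1 was called higher and 2 lower with the block, beside 10.7% and 9.13% of all genes. The median log2 fold change was -0.03. *Ptpn6*, the gene of the phosphatase SHP1, was at 24.9, 24.7 and 23.0 CPM in wild-type and 19.2, 19.7 and 19.4 CPM in S138A libraries. The genotypes did not overlap, and the log2 fold change was -0.32 ± 0.11 (SE), with an adjusted p of 0.271 in edgeR, 0.0375 with the block and 0.0466 in DESeq2. With the block *Socs7* was lower (adjusted p = 0.0428) and *Socs5* higher (adjusted p = 0.0469).

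Of the 20 other reported targets of STAT3 or LIF 7 were called higher and 1 lower with the block, beside 10.7% and 9.13% of all genes. DESeq2 called 2 higher and 1 lower, beside 2.84% and 2.55% of all genes. The median log2 fold change was 0.19. *Sgk1*, a serum-responsive kinase gene, was at 381, 380 and 413 CPM in wild-type and 266, 253 and 289 CPM in S138A libraries. The genotypes were well apart, with a log2 fold change of -0.54 ± 0.09 (SE) and adjusted p of 0.177 in edgeR, 0.00582 with the block and 2.9e-05 in DESeq2. *Junb*, the gene of an AP-1 subunit, was at 35.5, 35.6 and 34.5 CPM in wild-type and 47.1, 53.8 and 68.4 CPM in S138A libraries. All S138A libraries were above all wild-type ones, with a log2 fold change of 0.68 ± 0.15 (SE) and adjusted p of 0.191 in edgeR, 0.0125 with the block and 0.00651 in DESeq2. *Smad7*, the gene of an inhibitory SMAD, went from 70.5 ± 2.24 to 91.7 ± 5.95 CPM (SD, n = 3 each; adjusted p = 0.199 in edgeR, 0.0161 with the block and 0.0109 in DESeq2).

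The other genes of that list called higher with the block were *Klf4*, *Klf5*, *Fos*, *Zfp36* and *Sbno2*. *Sbno2* was at an adjusted p of 0.0499 with the block and 0.0578 with the crossed pairing, which called 6 genes of the list higher. *Klf4*, a transcription factor of the ESC network that STAT3 is known to raise, was at 193, 192 and 229 CPM in wild-type and 257, 216 and 344 CPM in S138A libraries, and the genotypes overlapped through wild-type 3 (adjusted p = 0.371 in edgeR and 0.0251 with the block). *Klf5*, a related factor, was at 119, 117 and 85.2 CPM in wild-type and 145, 150 and 98.0 CPM in S138A libraries, and so was lowest in the library of each genotype where *Klf4* was highest (adjusted p = 0.567 in edgeR, 0.592 in DESeq2 and 0.0291 with the block). *Fos*, an immediate early gene, was at 18.2, 20.2 and 53.6 CPM in wild-type and 37.2, 37.9 and 145 CPM in S138A libraries, with the same libraries highest as for *Socs3* (adjusted p = 0.449 in edgeR and 0.00398 with the block). *Tfcp2l1*, another STAT3 target of the ESC network, was at 480 ± 9.75 and 510 ± 33.8 CPM (SD, n = 3 each) and was not called (adjusted p = 0.714 in edgeR and 0.371 with the block).

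Of the 14 adaptor genes of the MAPK and PI3K branches 3 were called higher and 0 lower with the block. Of all genes, 10.7% and 9.13% were. The median log2 fold change was -0.03. *Irs2*, an insulin receptor substrate, was at 23.2, 23.8 and 20.9 CPM in wild-type and 33.8, 35.9 and 36.4 CPM in S138A libraries. The genotypes did not overlap, and the log2 fold change was 0.64 ± 0.11 (SE), with adjusted p of 0.17 in edgeR, 0.00816 with the block and 1e-05 in DESeq2. *Irs1*, of the same family, went from 7.15 ± 0.489 to 10.2 ± 0.255 CPM (SD, n = 3 each; adjusted p = 0.225 in edgeR and 0.0224 with the block). *Grb2*, the adaptor that SHP2 recruits, was at 135 ± 10.6 and 107 ± 14 CPM (SD, n = 3 each; adjusted p = 0.31 in edgeR and 0.0679 with the block).

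**Figure D5:**
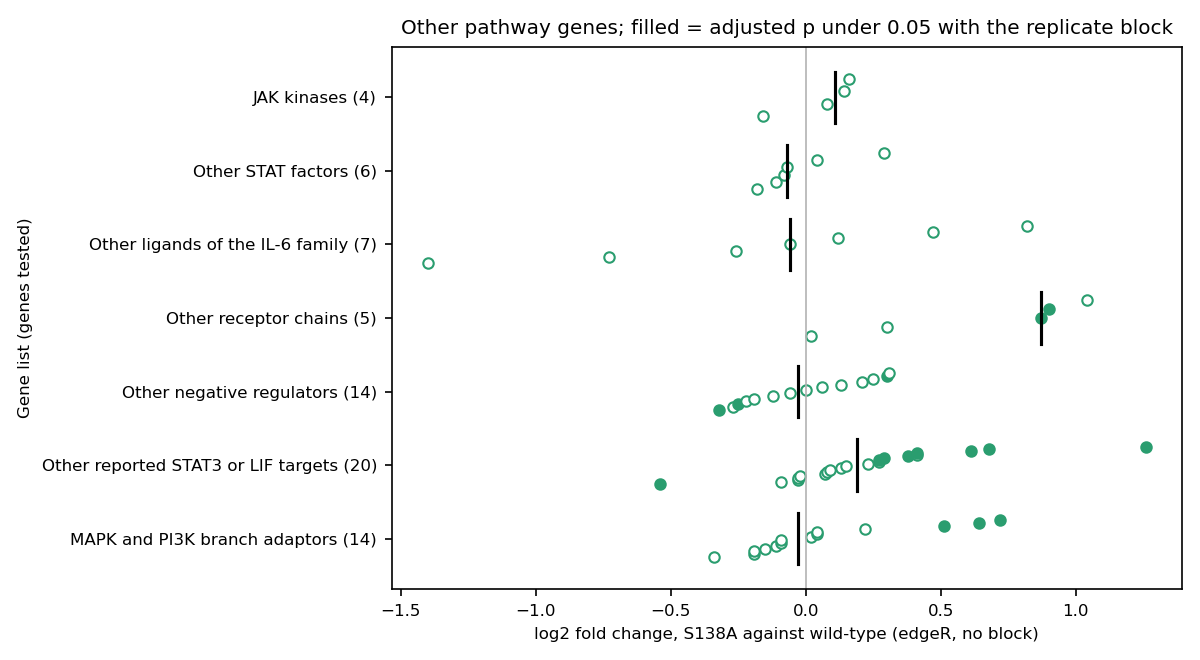
Each circle is a tested gene of a list, placed by its edgeR log2 fold change without a block (S138A against wild-type), filled where the adjusted p with the replicate block was under 0.05, and black bars mark the medians. Filled circles are seen on both sides of 0 and lie mostly to the right, with 13 higher and 3 lower.

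Genes whose profile over the 6 libraries was most like that of a member were sought among 10754 other genes of at least 5 CPM, by the root mean square difference of centred log2 CPM. For *Socs3*, whose own profile had an SD of 0.463, the nearest were *Aqp3* at 0.0517, *Ramp3* at 0.0549, *Wscd1* at 0.057, *Sgsm2* at 0.0571 and *Cldn7* at 0.0585. For *Gbx2*, with an SD of 0.612, they were *Nes* at 0.0639, *Zfp961* at 0.068, *Tle4* at 0.0699, *Dnmt3l* at 0.0783 and *Ttc30a1* at 0.08. For *Lif*, with an SD of 0.217, they were *Fam222a* at 0.0338, *Lpar5* at 0.0606, *Eras* at 0.0627, *Sp6* at 0.068 and *Snrpd2* at 0.0702. *Nes*, the nearest to *Gbx2*, is also on the list of neural markers and made up most of its sum, at 114, 115 and 54.5 CPM in the wild-type libraries and 110, 118 and 49.7 CPM in the S138A libraries. These profiles cover 6 libraries only, and the likeness for *Socs3* and *Gbx2* follows mainly how wild-type 3 and S138A C differ from the rest.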

How the data were processed

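PolyA RNA of 3 wild-type and 3 S138A E14 ESC libraries was sequenced from 500 ng of RNA with a stranded kit. Per the submitters' processing notes, the tools were CASAVA 1.8.4, TopHat2 2.0.11 and featureCounts and the build mm9 (NCBIM37). The authors deposited raw read counts per gene, and the strand setting and the handling of reads that fit several genes are not given in the sources used here. Spike-in RNA was added, but the table holds 0 spike-in rows. All 6 columns were used, and the S138A columns were mapped to their genotype only.

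Counts were analysed in R 4.3.3 with edgeR 4.0.16 (filterByExpr at min.count 10 and min.total.count 15, TMM factors, quasi-likelihood test), limma 3.58.1 and DESeq2 1.42.0, and figures were drawn with Python 3.11.15. Adjusted p-values are Benjamini-Hochberg values over all genes tested, called under 0.05, and adjusted p-values with a block or in the fit of 2 libraries against 2 are also from edgeR. Each SE is the absolute log2 fold change over the root of its F statistic. Libraries held 33227593 to 37169770 counts, which limits the precision for genes of few CPM. Symbols matched 32897 identifiers (87.4%). Transcript lengths and overlapping genes come from GENCODE M21 and promoters from RefSeq, both on GRCm38, another build than that of the counts.

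The genes and lists were chosen with earlier results of these data known. The text names all 10 genes, up to 3 genes of smallest p in each pathway list where no gene is called, and the 5 nearest profiles of *Socs3*, *Gbx2* and *Lif*. The replicate block used the last digit of each column's name, since the labels do not tie their replicate numbers to the S138A columns. Deviations from the genotype mean correlated at 0.602, 0.559 and 0.782 over 16023 genes for the 3 pairs, but at 0.604 and 0.594 with the numbers 1 and 2 crossed, so that these numbers cannot be told apart. The crossed pairing was added after seeing the data. Other alternatives were RLE and upper-quartile factors, other filters and thresholds, DESeq2, limma-voom, each library left out, and 2 libraries against 2.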

Additional observations from a re-analysis of the deposited data

How the results depend on the processing

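Without any block, edgeR called 0 genes over all 6 libraries. It called 4 with no filter beyond 1 count, between 0 and 79 with each library left out in turn (79 without S138A C), 3180 with the replicate block, 3253 with the block crossed and 4756 with 2 libraries against 2, and DESeq2 called 797. Of the 10 genes described, 2 were called with the replicate block, 2 with the crossed block and 6 with 2 libraries against 2. Of the other pathway genes, DESeq2 called 6, the replicate block 16, the crossed block 16 and 2 libraries against 2 called 27. Of all genes, the replicate block called 10.7% higher and 9.13% lower, and the crossed block 10.9% and 9.44%. The fit of 2 libraries against 2 called 15.3% higher and 14.3% lower, and DESeq2 2.84% and 2.55%. The block changed no call of the 10 genes other than those of *Pim1* and *Pim3*.

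The log2 fold change of *Lifr*, near 0, changed sign to 0.03 with upper-quartile factors, 0.01 with a filter of 1 CPM, and 0.00 with limma-voom, the replicate block and the crossed block, and ranged from -0.08 to 0.05 with libraries left out in turn. In the same way *Stat3* ranged from -0.02 to 0.21 (lowest without wild-type 3), *Socs3* from -0.12 to 0.57 (lowest without S138A C, and -0.03 without wild-type 1), *Gbx2* from -0.41 to 0.19 (highest without S138A C) and *Ptpn11* from -0.08 to 0.03. *Lif*, *Il6st*, *Socs2*, *Pim1* and *Pim3* kept their direction in 15 of 15 alternatives, but their size moved with libraries left out. *Lif* ranged from 0.04 (without S138A B) to 0.31 (without S138A C), *Il6st* from -0.31 to -0.22, *Socs2* from -0.61 (without wild-type 3) to -0.13 (without wild-type 1), *Pim1* from 0.29 (without S138A C) to 0.73 (without wild-type 3) and *Pim3* from 0.15 (without S138A C) to 0.49. The cause of these shifts was not tested. Among the 10 genes the spread between libraries limited *Gbx2* most, with a 95% interval of the log2 fold change from -1.09 to 0.88.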
